A study of Mus musculus with 7 samples.

Results

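The canonical histone cluster genes were described in sorted mouse fetal liver cells with and without Uhrf1. They were taken as every gene whose symbol in the deposited expression table begins with Hist1h, Hist2h, Hist3h or Hist4, which gave 68 of 22680 listed genes. By the class in the symbol, 6 were linker histone H1 genes, 18 H2A, 19 H2B, 12 H3 and 13 H4 genes. RNA was sequenced in 3 Uhrf1-/- LSK, 1 wild-type LK and 3 wild-type LSK libraries, all from C57BL/6 fetal liver at 13.5 d.p.c. LSK cells (lineage-negative, Sca-1 and Kit positive by common usage) hold the haematopoietic stem cells, and LK cells (Kit positive, without Sca-1) hold more committed progenitors. Per the labels, the cells were sorted in 2 rounds, and libraries were made with an Illumina TruSeq RNA kit. The sources used here do not give how Uhrf1 was deleted or how many fetuses went into a library. The series design speaks of 3 independent experiments without tying a library to an animal, so p-values measure only the spread between these libraries, which may in part be technical.

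Canonical histones package newly copied DNA. H2A pairs with H2B and H3 with H4 to form the nucleosome core, and H1 binds the linker DNA between cores. Their genes lie in clusters of short copies, nearly all without introns, and are transcribed mainly in S phase. Most of their mRNAs end in a conserved stem-loop, bound by the protein SLBP, in place of a poly(A) tail, and some copies also give longer polyadenylated transcripts in differentiated cells. UHRF1 binds hemimethylated DNA behind the replication fork, recruits DNMT1 and ubiquitinates histone H3. In bulk RNA from sorted cells, fewer cells in S phase and less histone RNA per cell cannot be told apart.

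The gene named by the genotype went with its label. Uhrf1 stood at 10.2, 8.78 and 18.6 FPKM (fragments scaled by transcript length and by library size) in Uhrf1-/- LSK cells and at 115.9 FPKM in LK cells, against 63.0, 66.8 and 112.8 FPKM in wild-type LSK cells. Both wild-type populations lay above all Uhrf1-/- libraries. The log2 fold change was -2.62 (SE 0.34, limma adjusted p = 0.018). Ly6a, which encodes Sca-1, stood at 0.321 FPKM in the LK library and between 26.4 and 96.4 FPKM in the 6 LSK libraries, and Kit stood between 24.4 and 56.6 FPKM in all 7 libraries. Count values added up to 15556959 to 21017402 in a library, and most values of a column were whole multiples of a scale factor of its own, which put the reads behind them at 16808524 to 25803046. Histone cluster genes held 0.771%, 0.673% and 0.528% of the count values in Uhrf1-/- LSK libraries and 0.231% in the LK library, against 1.41%, 0.309% and 0.249% in wild-type LSK libraries. Wild-type cells without further name are the LSK libraries.

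All 68 genes were found by gene ID in the RefSeq annotation of GRCm38.p6, the assembly behind the mm10 build that the submitters' processing notes name. Of these, 54 lie on chromosome 13 between positions 21715711 and 23934913, 10 on chromosome 3 between 96219885 and 96270192, 3 on chromosome 11 between 58948911 and 58955192, and 1 (Hist4h4) on chromosome 6. One listed H2B, Hist3h2bb-ps, is annotated as a pseudogene, and the other 67 had a coding sequence in GENCODE M21. The stem-loop, searched as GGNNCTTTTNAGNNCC downstream of the stop codon, was found in 44 of 67 annotated transcripts, and in 42 of the 46 whose annotated 3′ UTR reaches 60 bases or more. A gene without a match in so short an annotated end only lacks these letters in that window. The stem-loops of 5 genes to which the results below return are shown here, with the 4 bases of the loop in capitals.
Hist1h2ap, chr13:21833029-21833044, minus strand: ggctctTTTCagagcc
Hist2h2ac, chr3:96220418-96220433, minus strand: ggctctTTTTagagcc
Hist1h3c, chr13:23745047-23745062, minus strand: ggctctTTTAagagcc
Hist1h4d, chr13:23581950-23581965, plus strand: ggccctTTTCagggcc
Hist2h4, chr3:96262939-96262954, minus strand: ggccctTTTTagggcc
The stem letters differ between the H4 genes and the others shown, and the loop differs in its last base. In Hist1h2ap the stem-loop begins 39 bases after the stop codon, and in Hist2h2ac 22 bases after it.

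Copies within a class are so alike that short reads cannot always be placed. Between coding sequences of equal length, the median identity was 96.4% among H2A genes (77.6% to 100%), 97.2% among H2B, 97.2% among H3 and 93.9% among H4 genes, while no H1 genes shared a length. The median share of a transcript's 50-base stretches found in another histone transcript was 73.0% for H2A, 57.2% for H3, 42.1% for H2B, 39.5% for H4 and 1.1% for H1. The first 100 bases of the coding sequence are shown for the 6 H2A genes with the highest levels, since most of the histone signal came from them. Capitals mark the 6 positions at which any of these differ.
Hist1h2ap, chr13:21833376-21833475, minus strand: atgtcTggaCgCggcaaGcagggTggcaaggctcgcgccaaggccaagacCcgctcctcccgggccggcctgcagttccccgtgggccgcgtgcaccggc
Hist1h2ao, chr13:21810467-21810566, plus strand: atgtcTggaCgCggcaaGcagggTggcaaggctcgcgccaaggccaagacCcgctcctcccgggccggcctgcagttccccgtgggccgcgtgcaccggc
Hist1h2ai, chr13:21716422-21716521, plus strand: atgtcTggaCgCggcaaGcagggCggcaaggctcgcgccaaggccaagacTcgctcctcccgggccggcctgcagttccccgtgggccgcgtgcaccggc
Hist1h2an, chr13:21787119-21787218, minus strand: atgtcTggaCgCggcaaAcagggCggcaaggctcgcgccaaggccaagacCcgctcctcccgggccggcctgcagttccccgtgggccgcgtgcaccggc
Hist1h2ag, chr13:22042828-22042927, minus strand: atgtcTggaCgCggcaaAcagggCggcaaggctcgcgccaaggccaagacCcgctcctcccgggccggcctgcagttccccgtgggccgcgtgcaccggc
Hist1h2ak, chr13:21753728-21753827, minus strand: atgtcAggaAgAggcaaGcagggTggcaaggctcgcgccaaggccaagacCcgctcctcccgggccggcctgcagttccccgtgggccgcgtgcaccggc
Over the whole 393-base coding sequence these genes vary at 17 positions. Hist1h2ap and Hist1h2ao are identical throughout, and Hist1h2ag differs from them at 3 positions, Hist1h2an at 5, Hist1h2ai at 6 and Hist1h2ak at 12. The sources used here do not give how reads that match several copies were counted, so levels of single copies are uncertain and sums over a class are given beside them.

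The promoters carry different motifs by class. RefSeq promoters of 300 bases (250 before the start and 50 after it) were matched for 62 of the 68 genes and searched on both strands, beside those of all 27025 genes with a promoter in the RefSeq table. The octamer ATTTGCAT, bound by the factor OCT1, was present in 7 of 18 H2A and 7 of 16 H2B promoters, in none of the H1, H3 and H4 promoters, and in 1.97% of all genes. Some H2A and H2B promoters overlap on opposite strands, so the same match can count in both classes. Hist1h2ae with Hist1h2bg, Hist1h2ah with Hist1h2bk and Hist1h2aa with Hist1h2ba overlap in this way, and each of these promoters holds the octamer. The H1 box AAACACA was present in 5 of 6 H1 promoters, in 2 of 18 H2A and 2 of 16 H2B promoters, and in 8.22% of all genes. CCAAT was present in every matched H1, H2A, H2B and H3 promoter and in 3 of 12 H4 promoters, against 41.1% of all genes. TATAAA was present in 35 of the 62, against 15.7% of all genes. The 130 bases before the start are shown for 1 gene per kind of class or pattern, with these motifs in capitals on either strand; a motif that begins outside the stretch appears in part.
Hist1h2ap, chr13:21833476-21833605, minus strand: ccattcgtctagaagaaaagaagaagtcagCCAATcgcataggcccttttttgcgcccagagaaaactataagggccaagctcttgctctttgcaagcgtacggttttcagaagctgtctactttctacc
Hist1h2bl, chr13:21716184-21716313, minus strand: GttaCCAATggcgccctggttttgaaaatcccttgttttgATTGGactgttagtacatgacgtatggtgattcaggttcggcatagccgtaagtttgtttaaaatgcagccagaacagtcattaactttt
Hist1h1b, chr13:21780626-21780755, minus strand: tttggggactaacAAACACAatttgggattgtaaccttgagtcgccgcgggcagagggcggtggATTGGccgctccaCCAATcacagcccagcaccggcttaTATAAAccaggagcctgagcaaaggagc
Hist1h4d, chr13:23581438-23581567, plus strand: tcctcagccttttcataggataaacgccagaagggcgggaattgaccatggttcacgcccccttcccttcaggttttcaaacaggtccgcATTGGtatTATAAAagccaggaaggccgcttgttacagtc
Hist2h2ac, chr3:96220881-96221010, minus strand: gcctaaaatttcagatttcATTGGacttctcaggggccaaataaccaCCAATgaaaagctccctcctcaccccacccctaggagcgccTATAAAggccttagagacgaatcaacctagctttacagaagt
A match is a description of letters; binding was not measured. Hist1h1b holds the H1 box, 2 CCAAT matches and a TATAAA in this stretch, and Hist1h2ap a CCAAT alone.

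The summed level of the 68 genes was even across Uhrf1-/- libraries and uneven across wild-type libraries. It came to 54769, 50057 and 42042 FPKM in Uhrf1-/- LSK cells and 13306 FPKM in the LK library, against 96288, 15145 and 15374 FPKM in wild-type LSK cells. Wild-type replicate 1 lay above every Uhrf1-/- library and wild-type replicates 2 and 3 below every one, so the groups overlapped. The means were 48956 ± 6435 FPKM in Uhrf1-/- cells and 42269 ± 46782 FPKM in wild-type cells (SD, n = 3 each), a log2 difference of 0.21. Without wild-type replicate 1 the difference was 1.68, and without wild-type replicate 2 it was -0.19. The highest and the lowest library differed 1.303-fold among Uhrf1-/- libraries, while wild-type replicate 1 stood 6.36-fold above wild-type replicate 2 and 6.26-fold above wild-type replicate 3.

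**Figure D1:**
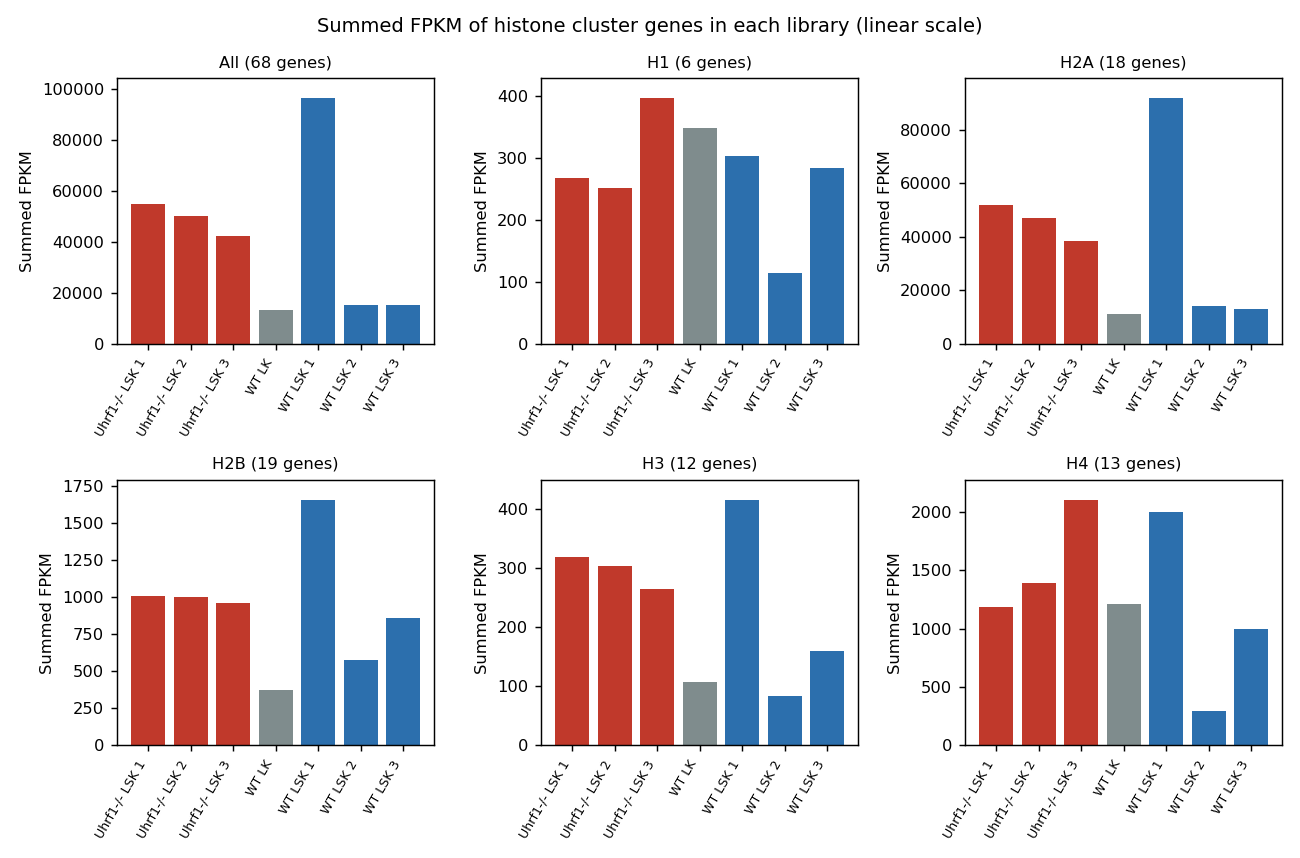
Summed FPKM of all 68 histone cluster genes and of each class (linear axes from 0) in 3 Uhrf1-/- LSK libraries (red), 1 wild-type LK library (grey) and 3 wild-type LSK libraries (blue), 1 bar per library. For all genes the Uhrf1-/- libraries lay between 42042 and 54769 FPKM, while wild-type LSK replicate 1 reached 96288 FPKM and replicates 2 and 3 stayed at 15145 and 15374 FPKM.

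H2A genes made up between 84.7% and 95.5% of this sum in every library. They summed to 51993, 47112 and 38322 FPKM in Uhrf1-/- LSK cells and 11271 FPKM in LK cells, against 91914, 14078 and 13073 FPKM in wild-type LSK cells. H2B, their partner in the nucleosome, summed to 1009, 999.0 and 958.9 FPKM in Uhrf1-/- cells and 374.3 FPKM in LK cells, against 1657, 576.3 and 857.9 FPKM in wild-type cells. H2B thus varied 1.05-fold among Uhrf1-/- libraries and 2.88-fold between wild-type replicates 1 and 2.
H3 genes summed to 318.2, 304.2 and 264.5 FPKM in Uhrf1-/- cells and 106.5 FPKM in LK cells, against 415.4, 84.4 and 159.3 FPKM in wild-type cells. H4 genes summed to 1181, 1391 and 2101 FPKM in Uhrf1-/- cells and 1206 FPKM in LK cells, against 2000, 292.5 and 999.4 FPKM in wild-type cells. H1 genes summed to 267.9, 250.7 and 396.2 FPKM in Uhrf1-/- cells and 348.7 FPKM in LK cells, against 302.2, 113.9 and 284.0 FPKM in wild-type cells. Wild-type replicate 2 was the lowest LSK library in every class but H2A, where wild-type replicate 3 was slightly lower, and in H1 and H4 the Uhrf1-/- library with the number 3 was the highest. The length behind these FPKM values is not that of the gene: the median over the 68 genes of the length implied by a count value and its FPKM was 156 bases in the library where it was shortest and 231 bases where it was longest, and it fell under 150 bases in at least 1 library for 29 genes. Levels of different classes are therefore compared only loosely. On the count values, scaled to the same total, the 68 genes summed to 146002, 127427 and 99940 in Uhrf1-/- cells, against 266871, 58570 and 47160 in wild-type cells, the same order of libraries but for the place of wild-type replicates 2 and 3.

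The H2A signal came mainly from 4 genes of the chromosome 13 cluster. Hist1h2ai, a canonical H2A gene and the most abundant of the 68, stood at 16289, 15046 and 15270 FPKM in Uhrf1-/- LSK cells and 4410 FPKM in LK cells, against 29600, 4381 and 5158 FPKM in wild-type LSK cells. Hist1h2an, another such copy, stood at 7607, 7090 and 6002 FPKM in Uhrf1-/- cells and 2039 FPKM in LK cells, against 14169, 2017 and 2142 FPKM in wild-type cells. Both had the 3 Uhrf1-/- libraries between wild-type replicate 1 above and the other wild-type libraries below.
Hist1h2ap stood at 16654, 14372 and 7834 FPKM in Uhrf1-/- cells and was listed at 0 in LK cells, against 27040, 4324 and 1417 FPKM in wild-type cells. Its twin in coding sequence, Hist1h2ao, stood at 5289, 4808 and 4197 FPKM in Uhrf1-/- cells and 2618 FPKM in LK cells, against 9422, 1501 and 2215 FPKM in wild-type cells. Within this pair, Hist1h2ap took 75.9%, 74.9% and 65.1% of the FPKM in Uhrf1-/- cells and 0.0% in LK cells, against 74.2%, 74.2% and 39.0% in wild-type cells. The share was thus about the same in replicates 1 and 2 of both genotypes, lower in replicate 3 of both, and nil in LK cells. The coding sequences printed above are the same letter for letter for this pair, so only reads that reach past the coding sequence can separate them. Whether the split is of RNA or of read assignment was not tested. The sum of the pair was 21944, 19180 and 12031 FPKM in Uhrf1-/- cells and 2618 FPKM in LK cells, against 36462, 5825 and 3632 FPKM in wild-type cells.

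**Figure D2:**
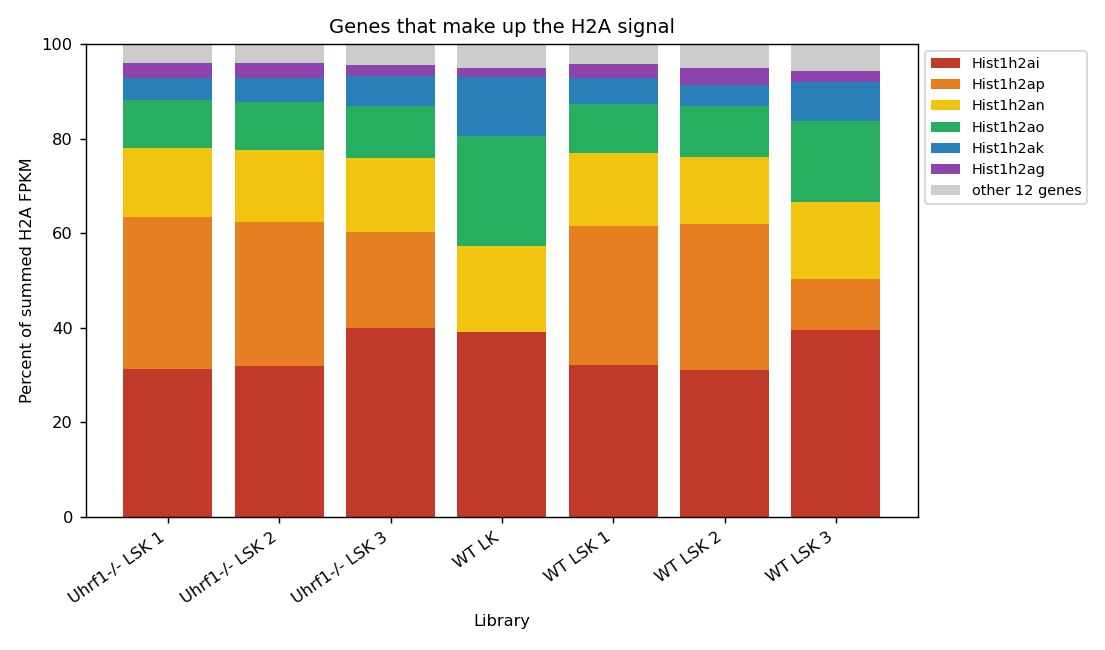
Percent of the summed H2A FPKM (vertical axis, 0 to 100) that came from each of the 6 H2A genes with the highest mean and from the other 12, in each library. Hist1h2ap (orange) took 32.0%, 30.5% and 20.4% in Uhrf1-/- libraries and no part of the LK bar, against 29.4%, 30.7% and 10.8% in wild-type LSK libraries.

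Other copies with the same coding sequence were also split unequally, to different degrees. Hist1h4n took 90.1%, 89.2% and 96.3% of the FPKM it shares with Hist1h4m in Uhrf1-/- cells and 99.6% in LK cells, against 93.6%, 86.0% and 97.2% in wild-type cells. Hist2h2aa1 took between 83.9% and 100% of its pair with Hist2h2aa2 over the 7 libraries, Hist2h3c2 between 66.8% and 85.2% of its pair with Hist2h3c1, and Hist1h2bq between 56.7% and 65.4% of its pair with Hist1h2br. The share of count values under 1000 reads that were no whole multiple of the library's step (tolerance 0.05 of a step) was 3.57% to 9.62% among the histone genes and 1.19% to 1.73% among all genes. The histone values lay in few genes: Hist1h4m and Hist1h4n (6 of 7 libraries each), Hist2h2aa1 (5 of 7) and Hist2h2aa2 (5 of 6). The rest were Hist1h2be (4 of 7) and Hist1h1e (1 of 1). Hist1h2bq, Hist1h2br, Hist2h3c1 and Hist2h3c2 had 0 of 7. Hist1h2ap and Hist1h2ao had no value above 0 and under 1000 reads, so their split was not covered.

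No histone cluster gene passed the test between genotypes. Of the 68 genes, 65 had a mean of at least 1 FPKM over the LSK libraries and entered the limma fit on log2(FPKM + 1) with 10608 genes; Hist1h1t, Hist1h2aa and Hist4h4 did not. At an adjusted p under 0.05, 0 of 65 were called higher in Uhrf1-/- cells, where 0.113% of all genes were, and 0 were called lower, where 0.0566% of all genes were. At an unadjusted p under 0.05 there were 2 of 65 (Hist1h1b and Hist2h4), against 5.57% of all genes. With the replicate number as a block, Hist2h4 was called higher, 1 of 65 against 1.23% of all genes, and 0 were called lower, against 0.83%. The median log2 fold change was 0.53 over the 65 genes and -0.03 over all genes tested, but the former ranged from 0.05 to 1.02 as single libraries were left out. It lay above 0 in 51 of 65 genes, against 46.1% of all genes. Many of the 65 are near-identical copies measured in the same libraries, so such counts are not of 65 separate observations. In 43 of 65 genes (66.2%) all 3 Uhrf1-/- values lay inside the range of the 3 wild-type values, against 29.7% of all genes. In 1 of 65 all 3 Uhrf1-/- values lay above all 3 wild-type values (4.61% of all genes), and in 0 of 65 below (6.16% of all genes).

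**Figure D3:**
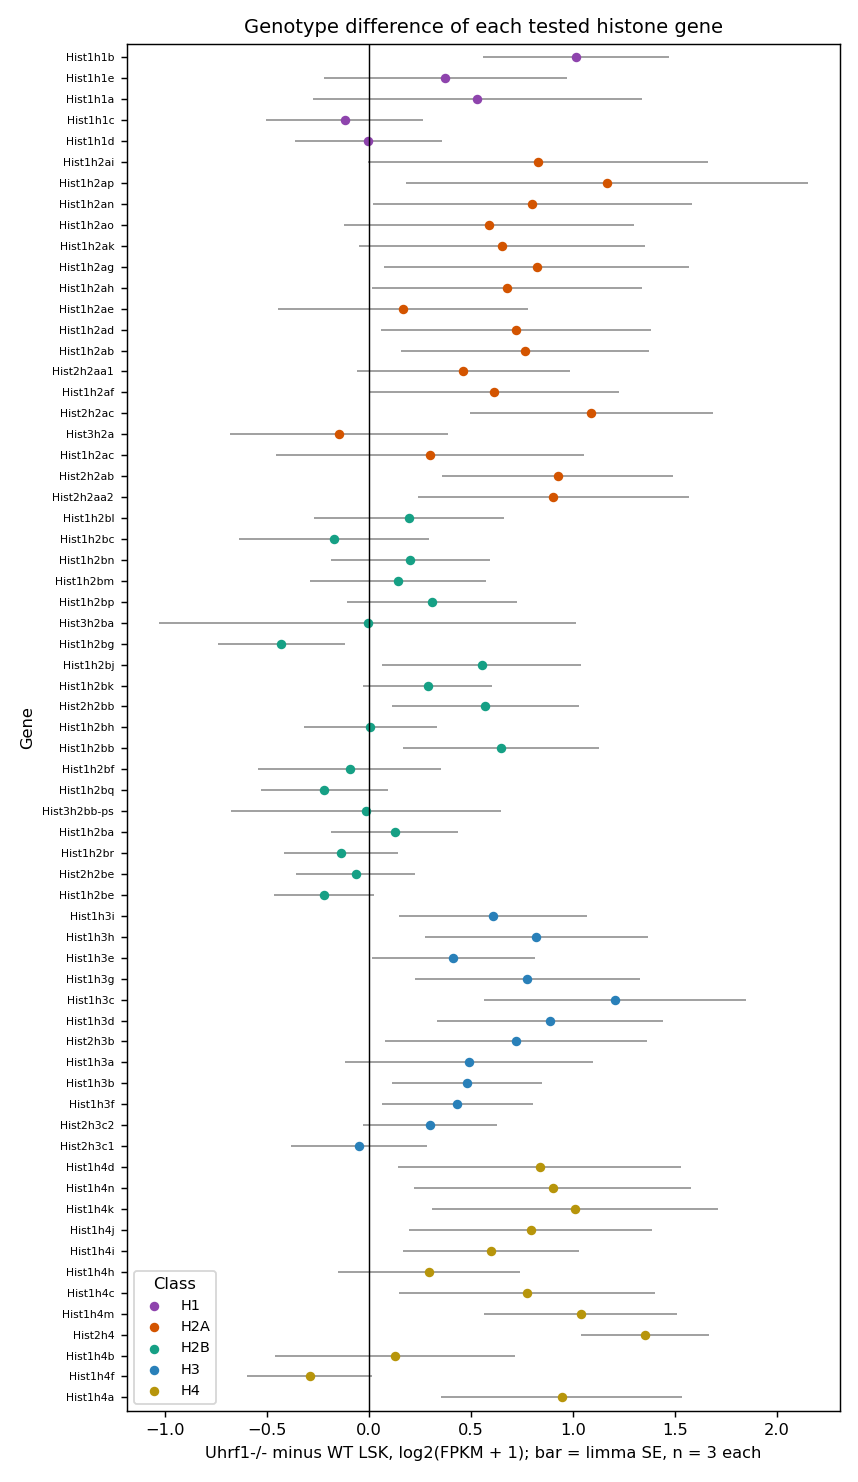
Uhrf1-/- minus wild-type LSK difference on the log2(FPKM + 1) scale for the 65 tested histone genes, coloured by class and ordered within a class by mean level over the 7 libraries; bars are limma standard errors (n = 3 each). Of the points, 51 lie right of 0, and Hist2h4, at 1.36 with an SE of 0.31, is the farthest right.

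Hist2h4, an H4 gene of the chromosome 3 cluster, was the one gene with separate groups. It stood at 13.1, 9.28 and 15.7 FPKM in Uhrf1-/- LSK cells and 12.5 FPKM in LK cells, against 4.86, 2.71 and 5.65 FPKM in wild-type LSK cells. Every Uhrf1-/- library lay above every wild-type LSK library, and the LK library lay among the Uhrf1-/- ones. The log2 fold change was 1.36 (SE 0.31), higher in 3 of 3 same-numbered pairs (1.27, 1.47 and 1.33), with a limma adjusted p of 0.159 without the replicate block and 0.00304 with it. The gene is low: its count values were 34.2, 23.5 and 39.6 in Uhrf1-/- cells, against 13.6, 7.06 and 15.0 in wild-type cells. It is also the most distinct of the named H4 copies, with 1.0% of its 50-base stretches found in another histone transcript and an annotated transcript of 1630 bases, of which the coding sequence is 312. The length implied by its count values and FPKM was only 127 to 167 bases.

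The highest H4 genes instead followed the uneven wild-type pattern. Hist1h4d stood at 349.3, 453.6 and 801.2 FPKM in Uhrf1-/- cells and 474.1 FPKM in LK cells, against 723.9, 91.2 and 334.4 FPKM in wild-type cells. Hist1h4n stood at 236.5, 274.5 and 480.5 FPKM in Uhrf1-/- cells, against 399.4, 53.5 and 220.7 FPKM in wild-type cells, and Hist1h4k at 229.2, 264.3 and 376.9 FPKM in Uhrf1-/- cells, against 362.6, 41.9 and 180.4 FPKM in wild-type cells. In all 3 genes Uhrf1-/- replicate 3 was the highest LSK library, above wild-type replicate 1, and wild-type replicate 2 was the lowest. The log2 fold changes were 0.84 (SE 0.69), 0.90 (SE 0.68) and 1.01 (SE 0.70), with limma adjusted p-values of 0.942. Without wild-type replicate 1 they were 1.52, 1.52 and 1.69, and without wild-type replicate 2 they were 0.03, 0.08 and 0.15.
Hist1h4m, the minor copy of the Hist1h4n pair, stood at 25.9, 33.1 and 18.3 FPKM in Uhrf1-/- cells and 0.910 FPKM in LK cells, against 27.4, 8.75 and 6.38 FPKM in wild-type cells (log2 fold change 1.04, SE 0.47, limma adjusted p = 0.914). Hist1h4f had the lowest log2 fold change of the H4 genes, -0.29 (SE 0.30), at 5.44, 4.94 and 3.76 FPKM in Uhrf1-/- cells, against 6.63, 3.78 and 8.14 FPKM in wild-type cells; it was 0.03 without both libraries numbered 3. Of 12 tested H4 genes, 11 had a positive log2 fold change (median 0.81).

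Among the linker histones, Hist1h1b (H1.5) was the most abundant. It stood at 136.7, 101.2 and 188.9 FPKM in Uhrf1-/- LSK cells and 174.8 FPKM in LK cells, against 102.1, 31.1 and 96.8 FPKM in wild-type LSK cells. The groups overlapped by 1 library, since wild-type replicate 1 and Uhrf1-/- replicate 2 were nearly level. The log2 fold change was 1.01 (SE 0.45), higher in 3 of 3 same-numbered pairs, and the limma adjusted p was 0.895 without the replicate block and 0.0809 with it.
Hist1h1a (H1.1) stood at 24.8, 31.9 and 78.6 FPKM in Uhrf1-/- cells and 90.8 FPKM in LK cells, against 27.2, 8.75 and 80.4 FPKM in wild-type cells. Hist1h1c (H1.2), whose human counterpart also gives polyadenylated RNA, stood at 43.4, 52.0 and 24.5 FPKM in Uhrf1-/- cells and 14.8 FPKM in LK cells, against 56.3, 53.2 and 23.8 FPKM in wild-type cells. In both genotypes replicate 3 was the highest library for Hist1h1a and the lowest for Hist1h1c, and the LK library lay farther out on the same side. Their log2 fold changes between genotypes were 0.53 (SE 0.81) and -0.12 (SE 0.39). Hist1h1e (H1.4) stood at 58.9, 61.5 and 99.7 FPKM in Uhrf1-/- cells and 63.5 FPKM in LK cells, against 108.6, 18.9 and 78.3 FPKM in wild-type cells (log2 fold change 0.37, SE 0.60).

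H2A genes had positive log2 fold changes in 16 of 17 tested, with a median of 0.72, and in 15 of 17 the Uhrf1-/- values lay inside the wild-type range. The differences of the most abundant genes, whose values are given above, were 1.17 (SE 0.99) for Hist1h2ap, 0.83 (SE 0.83) for Hist1h2ai and 0.80 (SE 0.78) for Hist1h2an, each with a limma adjusted p of 0.942. Their standard errors were about as large as the differences. Without wild-type replicate 1 the differences were 2.32, 1.71 and 1.72 in the same order of genes. They were lowest at 0.19 for Hist1h2ap without wild-type replicate 3, and at 0.33 for Hist1h2ai and 0.32 for Hist1h2an without wild-type replicate 2. Hist2h2ac, an H2A gene of the chromosome 3 cluster, had a log2 fold change of 1.09 (SE 0.60). It stood at 40.3, 57.8 and 140.7 FPKM in Uhrf1-/- cells and 36.6 FPKM in LK cells, against 67.4, 15.8 and 29.95 FPKM in wild-type cells. Its highest value was in Uhrf1-/- replicate 3, where most H2A genes had their lowest Uhrf1-/- value. So was that of Hist2h2ab, on the same chromosome, at 5.36, 5.46 and 12.3 FPKM in Uhrf1-/- cells, against 8.79, 0.972 and 3.15 FPKM in wild-type cells.

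H2B genes were split in sign, 10 above and 9 below 0, with a median of 0.01. Hist1h2bc, the most abundant and counted in human among copies with polyadenylated RNA, stood at 239.8, 257.7 and 121.4 FPKM in Uhrf1-/- cells and 54.3 FPKM in LK cells, against 427.6, 179.3 and 139.9 FPKM in wild-type cells (log2 fold change -0.17, SE 0.46). Hist1h2bl stood at 199.2, 195.2 and 261.5 FPKM in Uhrf1-/- cells, against 338.0, 86.2 and 232.0 FPKM in wild-type cells (0.19, SE 0.47), and Hist1h2bn at 203.5, 203.3 and 233.3 FPKM in Uhrf1-/- cells, against 305.5, 108.7 and 189.8 FPKM in wild-type cells (0.20, SE 0.39). The Uhrf1-/- libraries of the last 2 genes were close to each other and lay inside the wild-type range.
Hist1h2bg had the lowest log2 fold change of the 65 genes, -0.43 (SE 0.31, limma adjusted p = 0.942). It stood at 29.9, 28.6 and 26.2 FPKM in Uhrf1-/- cells and 11.5 FPKM in LK cells, against 46.1, 50.8 and 23.9 FPKM in wild-type cells. Hist1h2be (0.902, 0.888 and 0.834 FPKM in Uhrf1-/- cells, against 1.79, 1.01 and 0.850 FPKM in wild-type cells) and Hist1h2bq (4.25, 4.02 and 2.47 FPKM in Uhrf1-/- cells, against 6.67, 3.18 and 3.50 FPKM in wild-type cells) both had a log2 fold change of -0.22. Hist3h2ba, on chromosome 11, varied most: it stood at 68.0, 65.4 and 13.6 FPKM in Uhrf1-/- cells and 1.42 FPKM in LK cells, against 148.4, 26.1 and 15.8 FPKM in wild-type cells, with a log2 fold change of -0.01 (SE 1.02).

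H3 genes were the lowest core class, none reaching a mean of 100 FPKM, and 11 of 12 had a positive log2 fold change (median 0.55). Hist1h3i, the highest, stood at 77.1, 66.4 and 57.8 FPKM in Uhrf1-/- cells, against 98.1, 22.3 and 36.9 FPKM in wild-type cells (0.61, SE 0.46). Hist1h3h stood at 73.3, 69.4 and 65.0 FPKM in Uhrf1-/- cells, against 98.5, 16.4 and 35.2 FPKM in wild-type cells (0.82, SE 0.55), and Hist1h3e at 39.8, 43.5 and 30.7 FPKM in Uhrf1-/- cells, against 51.4, 14.5 and 28.9 FPKM in wild-type cells (0.41, SE 0.40). All 3 encode canonical H3, and among the LSK libraries each was highest in wild-type replicate 1 and lowest in wild-type replicate 2, as the class sum was. Hist1h3c had the highest log2 fold change of the class, 1.21 (SE 0.64, limma adjusted p = 0.942), at 32.2, 29.3 and 15.9 FPKM in Uhrf1-/- cells, against 31.1, 4.27 and 7.16 FPKM in wild-type cells, and here wild-type replicate 1 lay just below Uhrf1-/- replicate 1.

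The comparison between libraries of the same number changed sign. The median log2 difference over the 65 genes was -0.61 between libraries numbered 1, 1.53 between those numbered 2 and 0.55 between those numbered 3, where the medians over all genes tested were -0.01, -0.05 and -0.05. Uhrf1-/- was higher in 6, 61 and 54 of the 65 genes in these pairs. H2A genes had medians of -0.78, 1.63 and 1.34, H4 genes -0.63, 1.83 and 1.03, H3 genes -0.39, 1.53 and 0.67, H2B genes -0.56, 0.74 and 0.24, and H1 genes -0.37, 1.65 and 0.04. All 5 classes thus had the same sign in each pair.

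**Figure D4:**
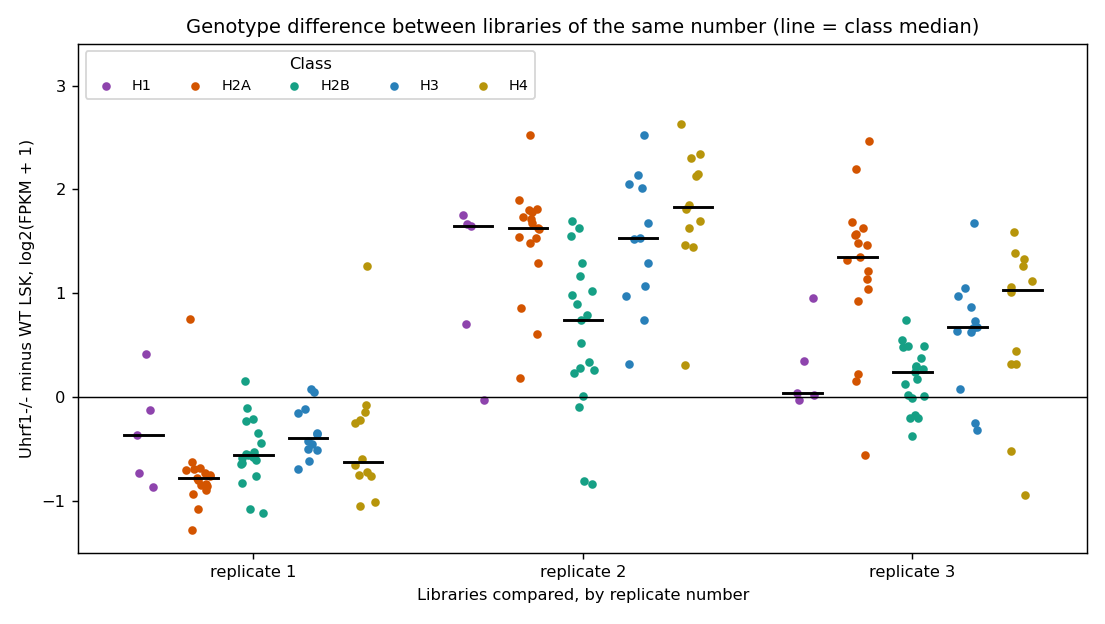
Difference on the log2(FPKM + 1) scale between the Uhrf1-/- and the wild-type LSK library of the same replicate number, 1 point per tested histone gene, grouped by class, with class medians as lines. Most points lie below 0 for replicate 1 (6 of 65 genes were higher in Uhrf1-/- cells) and above 0 for replicates 2 and 3.

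The wild-type libraries carried this change. The median SD of a histone gene on the log2(FPKM + 1) scale was 0.29 among Uhrf1-/- libraries and 1.13 among wild-type libraries (n = 3 each), against 0.26 and 0.40 for all genes tested, and the wild-type SD was the larger in 63 of 65 genes. Wild-type replicate 1 was the highest wild-type library in 57 genes, and the lowest was wild-type replicate 2 in 46 and wild-type replicate 3 in 19. Relative to wild-type replicate 1, the median histone gene was -1.96 in wild-type replicate 2 and -1.11 in wild-type replicate 3, where the medians over all genes were 0.07 and 0.05.

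**Figure D5:**
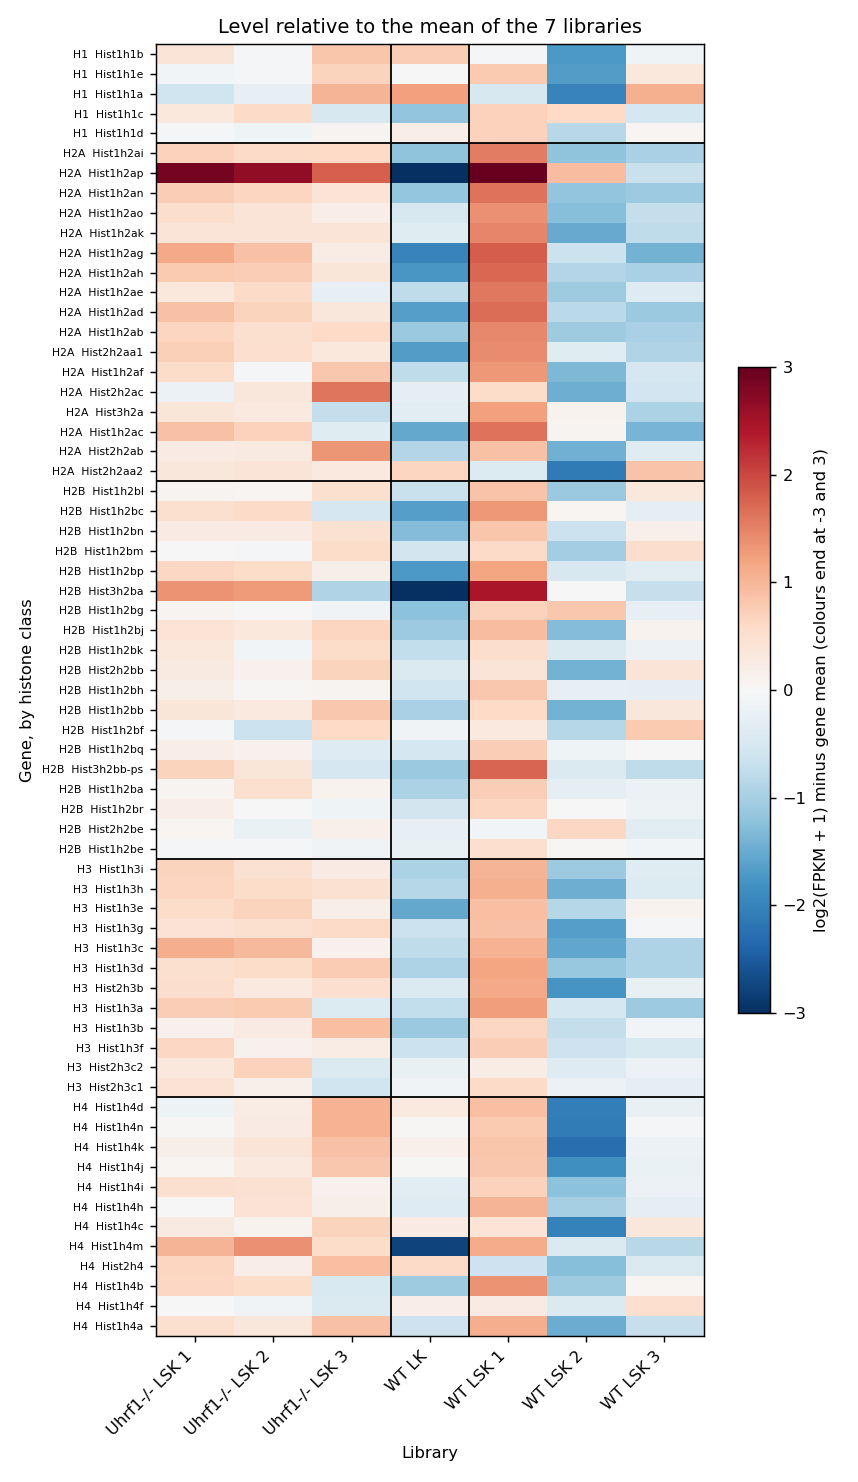
Level of each tested histone gene in each library, as log2(FPKM + 1) minus the gene's mean over the 7 libraries (red above, blue below, colours end at -3 and 3), grouped by class. The wild-type LSK 1 column is red for nearly every gene and the wild-type LSK 2 column blue for most. Hist1h1c, Hist1h2bg and Hist2h2be are red in the wild-type LSK 2 column. Hist1h2ap is red there too, although it stood at -2.64 against wild-type LSK 1, since its LK value of 0 lowers its mean.

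The low level in wild-type replicate 2 was uneven over the genes. Against wild-type replicate 1 it was -3.08 for Hist1h4k and -2.98 for Hist1h4d on the log2(FPKM + 1) scale, but -0.08 for Hist1h1c, 0.14 for Hist1h2bg and 0.71 for Hist2h2be. Hist2h2be, an H2B gene known in human for polyadenylated RNA, was low in all libraries, at 2.12, 1.58 and 2.33 FPKM in Uhrf1-/- cells, against 1.81, 3.59 and 1.38 FPKM in wild-type cells. The 8 tested genes listed as polyadenylated in human had a median of -0.72 (-1.55 to 0.71), against -2.06 for 56 others (-3.08 to -0.63). The 17 genes with an annotated transcript over 1000 bases had a median of -1.07, against -2.24 for 47 with shorter ones, and the 30 genes with over 50% of their 50-base stretches shared had a median of -2.45, against -1.68 for 34 others. Lengths and shared stretches here are those of GENCODE M21, which need not be the transcripts behind the FPKM values. Hist1h4d is annotated at 1138 bases, but its implied length was 100 to 132 bases. Hist1h1d is annotated at 7425 bases, with an implied length of 3127 to 5264 bases. These divisions were chosen with the values known, they overlap, and no test is given.

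Other short or non-polyadenylated RNAs moved with the histones in part of the wild-type LSK libraries. The 16 tested protein-coding genes outside the clusters that span up to 800 bases had a median of -1.59 in wild-type replicate 2 and -0.15 in wild-type replicate 3 against wild-type replicate 1. In LK cells their median was 0.93 against the wild-type LSK mean, opposite in sign to the histone median of -0.59. Ribosomal protein genes held 10.95%, 10.7% and 15.8% of count values in Uhrf1-/- libraries and 14.3% in the LK library, against 13.6%, 4.78% and 14.4% in wild-type libraries. Of the non-coding RNAs without a poly(A) tail, 5 of 24 listed were tested, with medians of -2.32 and -1.88 in wild-type replicates 2 and 3 against wild-type replicate 1. Between genotypes, limma without the replicate block called 0 of the 5 (0.113% of all genes higher, 0.0566% lower). An unadjusted p under 0.05 was found in 2 of them (5.57% of all genes). With the block 1 was called lower (0.83% of all genes) and 0 higher (1.23%). Among the 5, Rpph1, the RNA of RNase P, stood at 45.9, 38.6 and 106.2 FPKM in Uhrf1-/- cells and 224.1 FPKM in LK cells, against 84.9, 16.01 and 93.4 FPKM in wild-type cells. Among the 3 wild-type LSK libraries, replicate 2 was the lowest in the median of the short genes, in the ribosomal protein share and in Rpph1, as it was in 46 of 65 histone genes. Wild-type replicate 3 lay below wild-type replicate 1 in the median histone gene (-1.11), as in the medians of the 5 non-coding RNAs (-1.88) and of the short genes (-0.15). It lay above wild-type replicate 1 in the ribosomal protein share and in Rpph1, 1 of those 5 RNAs. The part of library preparation in the histone levels was not tested.

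Marker lists of other cells were compared over the same libraries. The macrophage list (7 of 8 genes in the table) summed to 36.0, 38.0 and 2.51 FPKM in Uhrf1-/- LSK cells and 1.27 FPKM in LK cells, against 149.4, 73.2 and 1.12 FPKM in wild-type LSK cells. It was highest in wild-type replicate 1, as the histones were, but wild-type replicate 2, where the histones were low, came next. Its level lay mainly in the complement genes: C1qb stood at 13.9, 16.1 and 1.71 FPKM in Uhrf1-/- cells and 0.260 FPKM in LK cells, against 67.0, 31.4 and 0.922 FPKM in wild-type cells, and C1qa and C1qc had the same 2 libraries highest. Timd4 and Vcam1, which mark resident macrophages, stayed under 1 FPKM in all 7 libraries. The erythroid list (12 of 13 genes) summed to between 313.4 and 453.9 FPKM in Uhrf1-/- cells and to 2386 FPKM in LK cells, against 245.7 to 490.8 FPKM in wild-type LSK cells, and the hepatoblast list (8 of 8 genes) to between 23.7 and 38.5 FPKM in all 7 libraries. Carbonic anhydrase gene Car2 made up most of the erythroid sum in the LSK libraries, and single erythroid genes did differ. Of 7 tested, 1 was called higher by limma without the replicate block (0.113% of all genes) and 2 with it (1.23% of all genes). Car1, another carbonic anhydrase gene, was called without the block, at 9.91, 10.6 and 8.67 FPKM in Uhrf1-/- cells and 69.9 FPKM in LK cells, against 2.04, 2.19 and 0.760 FPKM in wild-type cells (log2 fold change 2.06, SE 0.30, limma adjusted p = 0.0273). Epor, the erythropoietin receptor gene, stood at 15.3, 14.7 and 14.7 FPKM in Uhrf1-/- cells and 67.4 FPKM in LK cells, against 8.89, 5.22 and 1.38 FPKM in wild-type cells (1.59, SE 0.45), with a limma adjusted p of 0.325 without the replicate block and 0.0269 with it. In these genes and in Klf1, an erythroid transcription factor gene, every Uhrf1-/- value lay above every wild-type LSK value. This held in 4.61% of all genes. In each of these erythroid genes the LK value lay above both. The globin genes Hba-a1, Hba-a2 and Hbb-bs had log2 fold changes of -0.19, -0.36 and -1.22 and were not called. The part of such cells in the histone levels was not tested.

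Genes that make, process or use histone mRNA were compared in the same fit, in which few genes of any kind were called. Of 12 tested genes that control histone transcription, 17 of 3′ end processing, 11 of histone mRNA decay, 24 histone chaperones, 41 DNA replication genes and 20 mitosis genes, 0 were called in either direction by limma, with or without the replicate block. In the fit without the block 0 had an unadjusted p under 0.05. Over all genes 0.113% were called higher and 0.0566% lower without the block, and 1.23% higher and 0.83% lower with it. Without the block 5.57% of all genes had an unadjusted p under 0.05. Slbp, the stem-loop binding protein, stood at 114.1, 142.8 and 95.7 FPKM in Uhrf1-/- cells and 212.3 FPKM in LK cells, against 88.9, 172.8 and 98.6 FPKM in wild-type cells. It was highest among LSK libraries in wild-type replicate 2, where its targets were low. The 41 replication genes summed to 3542, 3797 and 3238 FPKM in Uhrf1-/- cells and 4161 FPKM in LK cells, against 3244, 3692 and 3207 FPKM in wild-type cells, so the highest and the lowest LSK library were close. The median of wild-type replicate 2 against wild-type replicate 1 was 0.27 over these genes, where it was -1.96 over the histone cluster genes.
E2f1, a transcription factor of S-phase genes, had the lowest unadjusted p of the control genes, at 36.2, 38.2 and 36.1 FPKM in Uhrf1-/- cells, against 28.5, 28.3 and 21.6 FPKM in wild-type cells (log2 fold change 0.49, SE 0.25, limma adjusted p = 0.942). Every Uhrf1-/- value lay above every wild-type value, as was so in 4.61% of all genes. Hinfp, which activates H4 genes, stood at 2.99, 3.32 and 1.24 FPKM in Uhrf1-/- cells, against 2.98, 4.13 and 4.30 FPKM in wild-type cells (-0.50, SE 0.31). Lsm4, which acts in mRNA decay and splicing, stood at 908.0, 887.4 and 541.0 FPKM in Uhrf1-/- cells, against 1126, 364.7 and 248.0 FPKM in wild-type cells, and was the one gene of the decay list whose libraries ran in the order of the histone count sums; it was picked after its values were seen.

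Histone variants encoded outside the clusters, most of them polyadenylated and not tied to S phase, were called between genotypes by limma in 0 of 11 tested without the replicate block (0.113% of all genes higher, 0.0566% lower), with 0 at an unadjusted p under 0.05 (5.57% of all genes). With the block 1 of 11 was called higher (1.23% of all genes) and 0 lower (0.83%). That gene was H1fx, a linker histone variant, at 355.2, 291.0 and 27.9 FPKM in Uhrf1-/- cells and 1.71 FPKM in LK cells, against 256.2, 84.1 and 6.91 FPKM in wild-type cells. Its log2 fold change was 1.37 (SE 1.75), higher in 3 of 3 pairs. The limma adjusted p was 0.943 without the block and 0.0146 with it. H2afz (H2A.Z) stood at 3274, 3750 and 1898 FPKM in Uhrf1-/- cells, against 2999, 2184 and 2593 FPKM in wild-type cells, and H3f3a (H3.3) at 1553, 1746 and 566.4 FPKM in Uhrf1-/- cells, against 2112, 1934 and 830.3 FPKM in wild-type cells. The median of wild-type replicate 2 against wild-type replicate 1 was -0.34 over the 11 variants and -1.96 over the cluster genes.

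The LK library stood below the wild-type LSK mean in summed H2A, H2B and H3 RNA, at 0.284, 0.363 and 0.485 of it, and above it in H1 (1.49) and H4 (1.099). The H4 direction rested on 1 library: the log2 difference was 0.14, and it was -0.31 without wild-type replicate 2 and 0.90 without wild-type replicate 1. Without wild-type replicate 1 the log2 difference was -0.27 for H2A, against -1.82 with it, and -0.20 for H3, against -1.05 with it. Its H2A sum of 11271 FPKM was nonetheless close to the 14078 and 13073 FPKM of wild-type LSK replicates 2 and 3. With 1 LK library there is no test. A gene was counted as different where it lay at least 1 log2 unit from the wild-type LSK mean and outside the range of the 3 libraries. By that rule 17 of 65 histone genes were lower in LK cells, where 12.5% of all genes were, and 3 were higher, where 9.0% of all genes were. The median difference was -0.59 over the histone genes and 0.07 over all genes. The counts rested on single libraries: without wild-type replicate 1 they were 10 lower and 7 higher, and without wild-type replicate 2 there were 32 lower. The shares of 12.5% and 9.0% are for all 3 wild-type LSK libraries. They cannot be set beside these counts, for which no share of all genes is given. By class the median was -0.91 for H2A, -0.73 for H2B, -0.56 for H3, 0.22 for H1 and 0.26 for H4.

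The 3 higher genes were Hist1h1a (difference 1.70), Hist2h4 (1.36) and Hist1h1b (1.36), whose values are given above, and 2 of them are linker histones. Among the lower ones, Hist1h2ap was listed at 0, Hist3h2ba differed by -4.07, Hist1h4m by -2.73, Hist1h2bc by -2.003 and Hist1h2ag by -1.94. Hist1h2ag, an H2A gene, stood at 194.3 FPKM in LK cells, against 2791, 502.6 and 296.0 FPKM in wild-type LSK cells. For Hist1h2ap and Hist1h4m the twin with the same coding sequence lay within the wild-type LSK range: Hist1h2ao stood at 2618 FPKM in LK cells, against 9422, 1501 and 2215 FPKM in wild-type LSK cells, and Hist1h4n at 235.7 FPKM in LK cells, against 399.4, 53.5 and 220.7 FPKM in wild-type LSK cells. By the same rule 7 of 11 histone variants encoded outside the clusters were lower in LK cells, where 12.5% of all genes were, and 0 were higher. Of 41 replication genes 4 were higher, a share close to the 9.0% of all genes, and 0 were lower.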

How the data were processed

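The deposited table gives an FPKM and a value headed count for every gene and library. The submitters' processing notes name the mm10 build, Cufflinks 2.1.1 and TopHat2 2.0.9; which annotation was used, whether strand was read and how reads matching several copies were handled is not given there. The deposited count values are read counts times a factor of each library, a signal and not raw counts, since 1.19% to 1.73% of values under 1000 reads were no whole multiple of the step; no count model was therefore run. The FPKM values were made by the authors and used as deposited.

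Genotypes were compared on log2(FPKM + 1), which understates changes of low genes, with limma 3.58.1 in R 4.3.3 (trend and robust moderation, two-sided, Benjamini-Hochberg over the 10608 genes averaging 1 FPKM or more in the 6 LSK libraries, threshold 0.05). The fit was tested on simulated data. Class sums and the LK library had no test. Replicate numbers come from the sample titles. Between same-numbered libraries the deviations from the mean of their group had correlations of 0.349, 0.332 and 0.645. Each exceeded 0.1, so numbers were taken to pair libraries and a fit with the replicate block was also made. Unlike numbers exceeded 0.1 too, at 0.213 for Uhrf1-/- 1 with wild-type 2 and 0.159 for Uhrf1-/- 2 with wild-type 1. Unlike-numbered pairs with a replicate 3 ran from -0.591 to -0.287. The correlations thus set replicate 3 apart but hardly tell 1 from 2, so results by block or by pairs are tentative. Alternatives covered the pseudocount (0.1), the filter, the measure, the scaling, the moderation and each library left out; the one without both libraries numbered 3 was chosen after seeing the data. Coding sequences and stem-loops are from GENCODE M21, positions and promoters from RefSeq (GRCm38.p6). The genes and lists were chosen with earlier results of these data known. Named genes were Hist1h2ap, the 3 highest of each class, those called, the 5 with the highest and the 5 with the lowest genotype difference, and the 5 farthest each way in LK cells.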

Additional observations from a re-analysis of the deposited data

How the results depend on the processing

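The count of called histone cluster genes between genotypes was 0 in either direction under every alternative run (pseudocount, filter, count values, median-of-ratios scaling, plain moderation, each library left out, both libraries numbered 3 left out) except the replicate block, which gave 1 higher (Hist2h4, log2 fold change 1.36, limma adjusted p = 0.00304) and changed no other call among the cluster genes. The block takes same-numbered libraries as pairs, which the correlations between libraries hardly settle for numbers 1 and 2. The edgeR alternative was not run, because the count values are not whole reads. Leaving out single libraries moved the median log2 fold change between 0.05 and 1.02 and the summed difference of all 68 genes between -0.19 and 1.68. By class the summed difference ran between -0.21 and 1.76 for H2A, -0.35 and 0.46 for H2B, 0.041 and 1.28 for H3, 0.05 and 1.27 for H4 and 0.06 and 0.62 for H1. The upper end was without wild-type replicate 1 for all 68 genes and for every class. The LK difference ran from -2.23 to -0.27 for H2A, -1.75 to -0.94 for H2B, -1.43 to -0.20 for H3, 0.25 to 0.81 for H1 and -0.31 to 0.90 for H4, and the LK counts from 2 to 7 higher and from 10 to 32 lower. No share of all genes is given for these LK counts. Log2 fold changes near 0 changed sign: Hist1h2bl was -0.0036 on count values, Hist3h2ba 0.047 under median-of-ratios scaling and 0.090 without both libraries numbered 3, and Hist1h4f 0.033 there. With single libraries left out, values ran from -0.23 to 1.298 for Hist1h1a, -0.51 to 0.19 for Hist1h1c, -0.37 to 0.86 for Hist1h1e, -0.50 to 0.30 for Hist1h2bc, -0.37 to 0.61 for Hist1h2bl, -0.18 to 0.56 for Hist1h2bn, -0.38 to 0.055 for Hist1h2bq, -0.037 to 0.84 for Hist1h3e and -0.65 to 0.93 for Hist3h2ba. The cause was not tested. With 3 libraries a group and a median wild-type SD of 1.13, the fit without the replicate block separated no cluster gene from the spread. With the block Hist2h4 alone was called, and low genes such as Hist2h4 rest on few reads.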
